A study of Homo sapiens with 32 samples.

Results

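Core m6A regions were defined as stretches of the genome in which every one of 16 MeRIP-seq libraries had a called peak. Overlapping peaks of the 16 lists on chromosomes 1 to 22 and X were merged, and a merged region was kept when a peak of each list overlapped it by at least 1 bp. This left 4216 core regions of 99053 merged regions (4.26%). The members were thus chosen by the calls themselves, so that their number, their width and their score are given as a description, without a test. Tests were kept for what the rule did not set directly: the place of the peaks in genes, the position of the summits, and the differences between groups of libraries at the regions that all groups share. The rule still narrows these differences, because a region that lacks a peak in any library is left out.

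The study used 2 human kidney lines, the clear cell renal cell carcinoma (ccRCC) line 786-O and RPTEC, an hTERT-immortalized line from renal proximal tubule that served as a surrogate of normal tissue. In each, 4 lines were profiled without further treatment: the parental SETD2 WT line, the CRISPR/Cas9 knockouts SETD2KO-1 and SETD2KO-2, and the rescue line SETD2KO-1R, made from the first knockout with a transgene for full-length FLAG-tagged SETD2. Each line had 2 IP libraries, each with its own list of peaks called over the matching Input. Each knockout or rescue line is 1 clone, so that genotype and clone cannot be told apart. The p-values of the fits made region by region rest on the spread between libraries labelled as replicates, which may be technical. The permutation tests between groups count each library as 1 unit, although the 2 libraries of a line are not independent. Read counts are not part of the lists, and the depth under a peak is therefore unknown. Strand is not given either, which leaves the source of a peak uncertain wherever genes overlap.

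N6-methyladenosine (m6A) is the most common internal modification of mRNA. A nuclear writer complex around METTL3 and METTL14 deposits it while the transcript is made, FTO and ALKBH5 can remove it, and YTH-domain and IGF2BP proteins read it to direct splicing, translation and decay. It is known to gather near stop codons, in long exons and in the 3′ part of transcripts. SETD2 is the enzyme that trimethylates lysine 36 of histone H3 in transcribed gene bodies, a mark that the writer complex can bind through METTL14, and its gene is often lost in ccRCC. A MeRIP-seq peak marks a fragment of RNA enriched by an antibody, and is many bases wider than the methylated adenosine.

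The labelled tissue was set against marker genes first. All 16 libraries had a peak in PAX8, PAX2, CDH6, KRT8 and KRT18, genes of renal epithelium, and in VEGFA and EPAS1 of the hypoxia pathway. The proximal tubule genes LRP2, AQP1 and SLC34A1 and the ccRCC marker CA9 had a peak in 0 libraries, and CUBN had one in 1 library of 786-O. A missing peak does not show that a transcript was absent. SETD2 itself had 2 core regions, so that peaks in its transcript were called in the knockout libraries too. At the stronger of the 2, chr3:47083913-47084621, the score percentile within each library's own list was 87.9 and 88.5 in 786-O WT, 68.5 and 69.8 in SETD2KO-1, 57.3 and 71.1 in SETD2KO-2 and 78.6 and 87.1 in SETD2KO-1R. In 786-O the 4 knockout libraries lay below the 4 SETD2-expressing ones, whereas in RPTEC the values of 53.4 to 87.9 in the knockouts and of 78.2 to 92.9 in the SETD2-expressing libraries overlapped. This region did not pass the test in either cell line, and a peak in SETD2 does not show whether the protein is made.

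At 71 core regions (1.68%) the consensus summit, the median of the 16 summits, lay within 50 bp of an annotated transcription start of a protein-coding gene. Sequence near the summit could be shown for these members, since start windows from RefSeq (GRCh38.p14) were at hand for 15812 of 19970 protein-coding genes. The 6 of them with the highest median score percentile are shown, each over 60 bases of the transcribed strand from 5′ to 3′, with the 30 bases before the start in lower case and the first 30 transcribed bases in capitals.
HNRNPL, chr19:38849957-38850016, minus strand: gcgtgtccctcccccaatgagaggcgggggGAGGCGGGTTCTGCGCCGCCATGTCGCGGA
SET, chr9:128689192-128689251, plus strand: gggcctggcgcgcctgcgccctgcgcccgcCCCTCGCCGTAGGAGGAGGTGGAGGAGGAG
TGFB1, chr19:41353893-41353952, minus strand: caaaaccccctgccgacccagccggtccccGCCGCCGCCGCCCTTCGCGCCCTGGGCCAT
KCTD1, chr18:26548524-26548583, minus strand: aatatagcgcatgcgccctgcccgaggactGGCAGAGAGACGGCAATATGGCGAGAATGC
PLK2, chr5:58460057-58460116, minus strand: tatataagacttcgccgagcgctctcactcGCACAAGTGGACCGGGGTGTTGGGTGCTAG
NAA50, chr3:113746220-113746279, minus strand: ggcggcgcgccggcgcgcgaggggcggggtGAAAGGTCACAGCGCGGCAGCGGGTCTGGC

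Measured along the transcript, the consensus summit lay 44 bp before the annotated start in HNRNPL, 14 bp before it in SET and 42 bp before it in PLK2, and 14, 33 and 34 bp after it in TGFB1, KCTD1 and NAA50, so that in HNRNPL, PLK2, KCTD1 and NAA50 it fell just outside the bases shown. In HNRNPL the summit lay 14.5% of the way along the annotated gene body, so that the bases shown before this start also lie within the gene. HNRNPL encodes an RNA-binding splicing factor, SET a histone chaperone, TGFB1 the growth factor TGF-β1, PLK2 a polo-like kinase and NAA50 an N-terminal acetyltransferase. Over all 71 regions the median percentile was 89.2, against 74.97 over all core regions. The annotated start base was an A in 33 of the 71 (46.5%), against 50.1% of all 22155 start windows of protein-coding genes. The letters GGACT, a common form of the m6A sequence context, were found on the transcribed strand of the window, from 250 bases before to 50 after the start, in 21.1% of the 71 and in 25.9% of all windows. On either strand the shares were 45.1% and 45.3%. In the 50 bases after the start, the part of the window transcribed from that start, they were found in 5 of the 71 (7.04%), against 4.88% of all windows. The shorter GGAC, which GGACT contains, was found on the transcribed strand of the whole window in 76.1% and 69.3%, and in the 50 bases after the start in 18.3% and 19.8%. These differences were not tested, and a match or its lack says nothing about methylation at a given base.

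The number of regions fell from 36818 called in 1 library (37.2% of all) to 2868 in 8 and 1749 in 12, and rose again to 2003 in 15 and 4216 in all 16. Core regions held 83439 of 471882 peaks (17.7%), between 12.9% and 26.1% of the peaks of a library, and covered 5.59 Mb. Their median width was 1146 bp (quartiles 789 and 1656, range 305 to 7685), against 424 bp in all other regions. Width and number of libraries are tied by the merging, because each further peak can only lengthen a region. Just outside the rule, the 2003 regions called in 15 libraries had a median width of 975 bp and a median percentile of 66.1, against 74.97 in core regions. RPTEC SETD2KO-2 replicate 2, the library with the fewest peaks (19159), alone missed 545 of them (27.2%), and RPTEC libraries together missed 1346 (67.2%).

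**Figure D1:**
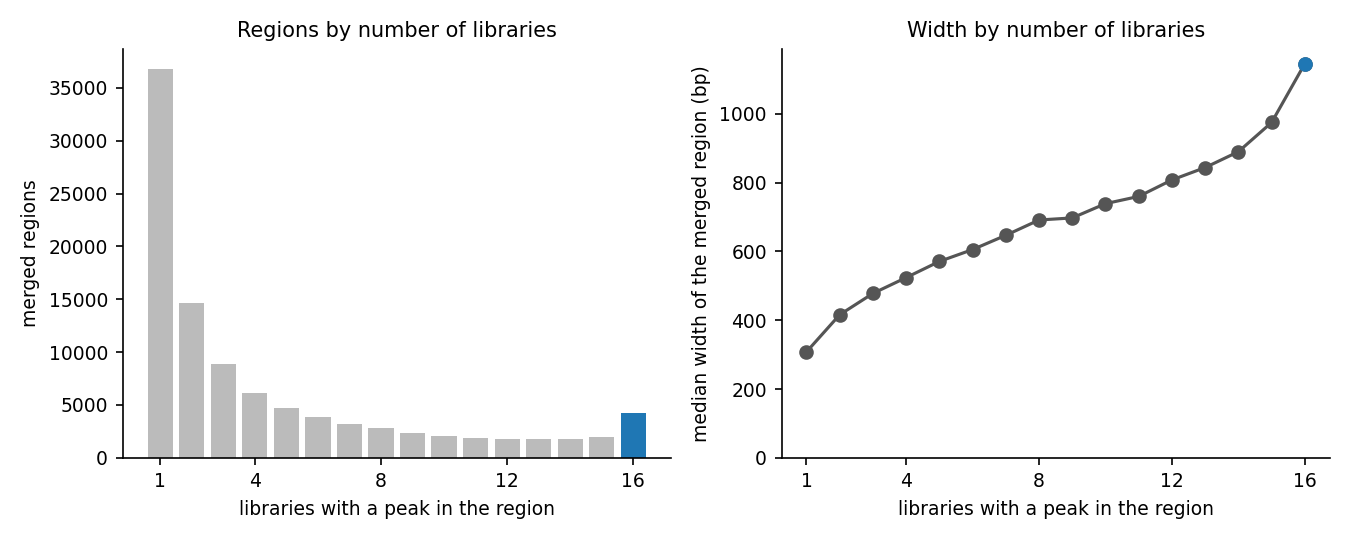
Left, number of merged regions (y axis) by the number of libraries that called them (x axis); right, their median width in bp. The 4216 regions called in all 16 libraries, in blue, outnumber every class from 6 libraries upward and have the largest median width, 1146 bp.

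A core region was not always 1 peak seen 16 times. In 2192 (52.0%) every library had exactly 1 peak, with a median width of 810 bp, whereas the others, with a median of 1670.5 bp, held several peaks in at least 1 library. In 500 regions (11.9%) no single base was covered by a peak of all 16 libraries, so that different libraries called different parts of the region. The median stretch shared by all 16 was 309 bp. In each library the summit of its highest-scoring peak was taken, and the distance between the outermost of the 16 summits had a median of 486.5 bp. It was at most 50 bp in 261 regions (6.19%) and at most 100 bp in 579 (13.7%). In regions of single peaks its median was 301 bp, against 893 bp in the others. Summits lay closer together where scores were high, with a median range of 177.5 bp in the 25% of regions with the highest percentiles and 664 bp in the lowest 25% (Spearman correlation across the 4216 regions -0.344, and -0.47 across the single-peak regions). The regions are not independent replicates, and the relation is a description.

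The tightest summits lay in ZC3H18, which encodes an RNA-processing zinc finger protein, in AP3D1, a subunit of the AP-3 vesicle coat, and in ZNF146, where the 16 summits fell within 21 bp. The longest core regions were 7685 bp in IGFN1, 6914 bp in SLC26A1, a sulfate transporter that shares the region with IDUA, and 6902 bp in MKI67, the proliferation marker Ki-67. In MKI67 the summits stayed within 163 bp of each other despite the length. In IGFN1 they spanned 7406 bp. Of the 8 summits of 786-O, 6 stood at -3847 to -3820 bp from the median, towards the gene's start, and of the 8 of RPTEC, 6 stood at 3362 to 3559 bp, while RPTEC SETD2KO-1 replicate 1 stood at -3410 bp, on the 786-O side. The summits did not pass the test between cell lines, whereas the score did, with percentiles of 94.1 to 99.7 in 786-O and 25.6 to 95.7 in RPTEC (difference 1.53 in normal scores, limma adjusted p = 0.0293).

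Of the core regions, 3913 (92.8%) had their consensus summit in a protein-coding gene, 114 (2.70%) in a lncRNA gene only, 41 in another kind of gene and 148 (3.51%) in none. The share in protein-coding genes was 79.1% for regions called in 1 library, 81.5% for 2 to 7 and 86.8% for 8 to 15 libraries. The core regions marked 3097 protein-coding genes, 15.5% of the 19970 in the gene table and 23.8% of the 13019 that held any merged region. A single core region was found in 2487 genes, 2 in 467 and at least 3 in 143. TRIO, a guanine nucleotide exchange factor of small GTPases, and KIRREL1, a slit diaphragm family adhesion protein, had 7 each. MACF1, a linker of microtubules and actin, and the transcription factor ZFHX3 had 6 each. BICC1, SPTBN1, DST, RNF213, ZNF83 and MTCL1 had 5 each. Genes with a core region were longer, with a median of 39.5 kb, than the other genes with a region, with 29.6 kb.

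The core regions sat towards the 3′ ends of genes. Where the strand of a protein-coding gene was known (3267 regions, 83.5%), the median consensus summit lay 75.5% of the way along the gene body, 45.3% lay in its last 20% and 14.8% in its first 20%. With the median of all summits in a region, the last 10% of the gene body held 31.6% of core regions, 21.0% of those called in 8 to 15 libraries, 13.96% of those in 2 to 7 and 11.9% of those in 1. The first 10% held 9.60% of core regions. Gene bodies include introns, so that these shares are not positions in the mature transcript. The summit was within 1000 bp of the gene's end in 247 core regions (7.56%), within 5000 bp in 44.0%, and within 200 bp of its start in 127 (3.89%).

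**Figure D2:**
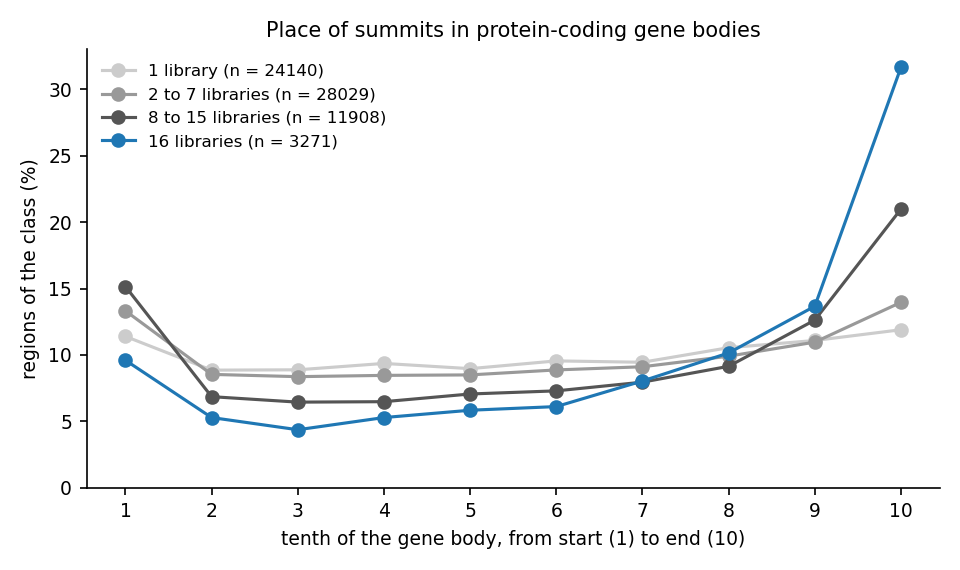
Share of regions (y axis, percent of the class) whose median summit fell in each of 10 equal parts of a protein-coding gene body (x axis, start to end), for 4 classes by number of libraries, genes of known strand only. Core regions, in blue, reach 31.6% in the last part, against 11.9% for regions called in 1 library.

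The same difference was tested within libraries, each peak of a library being either in a core region or not. Peaks in core regions had their summit in a protein-coding gene in 91.6% ± 0.397 (SD, n = 16 libraries), against 83.8% ± 3.01 for the other peaks. The difference of 7.79 percentage points had the same sign in 16 of 16 libraries (two-sided exact paired permutation test, p = 3.05e-05, the smallest it can give; 4.58e-05 adjusted over 3 tests). Within 1000 bp of the end of a gene of known strand lay 7.34% of core peaks and 5.51% of the others, again a difference of the same sign in 16 of 16 libraries, 1.83 points (exact paired permutation test, adjusted p = 4.58e-05). Within 1000 bp of an annotated start lay 9.54% ± 0.516 and 11.3% ± 2.66, a difference of -1.76 points with core peaks higher in 4 libraries (exact paired permutation test, adjusted p = 0.00909). The call near starts did not hold at 2000 bp, where the difference was -0.520 points (exact paired permutation test, p = 0.431). The libraries share the core regions, so that the 16 differences are not independent.

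The strongest members stood near the top of every list. EIF5B, a translation initiation factor that joins the ribosomal subunits, led with a median percentile of 99.9 over the 16 libraries and a lowest value of 99.5, at chr2:99376066-99376479. INCENP, a scaffold of the chromosomal passenger complex, at chr11:62146377-62147028, and BASP1, a membrane-bound signalling protein, at chr5:17274928-17276261, had lowest values of 99.4 each. These were the 3 regions above the 99th percentile in all 16 libraries. CAVIN1 of the caveolar coat, the HSP90 co-chaperone CDC37, FBL, the methyltransferase fibrillarin, TCEAL9, HNRNPL and CLSTN1 were all at least 97.9 in every library. The actin-binding protein COTL1 was at least 97.1 and ACIN1 of the exon junction complex periphery at least 96.2. UBE2M, the NEDD8-conjugating enzyme, ranged from 88.2 to 99.98. In SUPT5H, a subunit of the elongation factor DSIF, 15 libraries were at 99.1 or above, while RPTEC SETD2KO-2 replicate 2 was at 1.98, and no base of that region was covered by all 16 libraries. The summits of most of these regions were tight, spanning 27 bp in EIF5B, 42 in INCENP, 36 in CAVIN1, 35 in CDC37, 30 in BASP1 and 27 in CLSTN1 and ACIN1.

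Being called everywhere did not require a high score. Of the 4216 regions, 1668 (39.6%) were above the median of every list and 135 (3.20%) above the 90th percentile of every list, while 370 (8.78%) had a median percentile below 50. The lowest were TASOR2, a paralogue of a heterochromatin silencing factor, with a median of 17.7 (4.15 to 54.8), TRIM52, a ubiquitin ligase, with 22.8 (3.33 to 68.7), and ZNG1C, a member of a family of near-identical copies, with 23.03 (0.174 to 55.0). In none of these 3 was a base covered by all 16 libraries. Because ZNG1C has close copies, its peaks may hold reads of them.

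**Figure D3:**
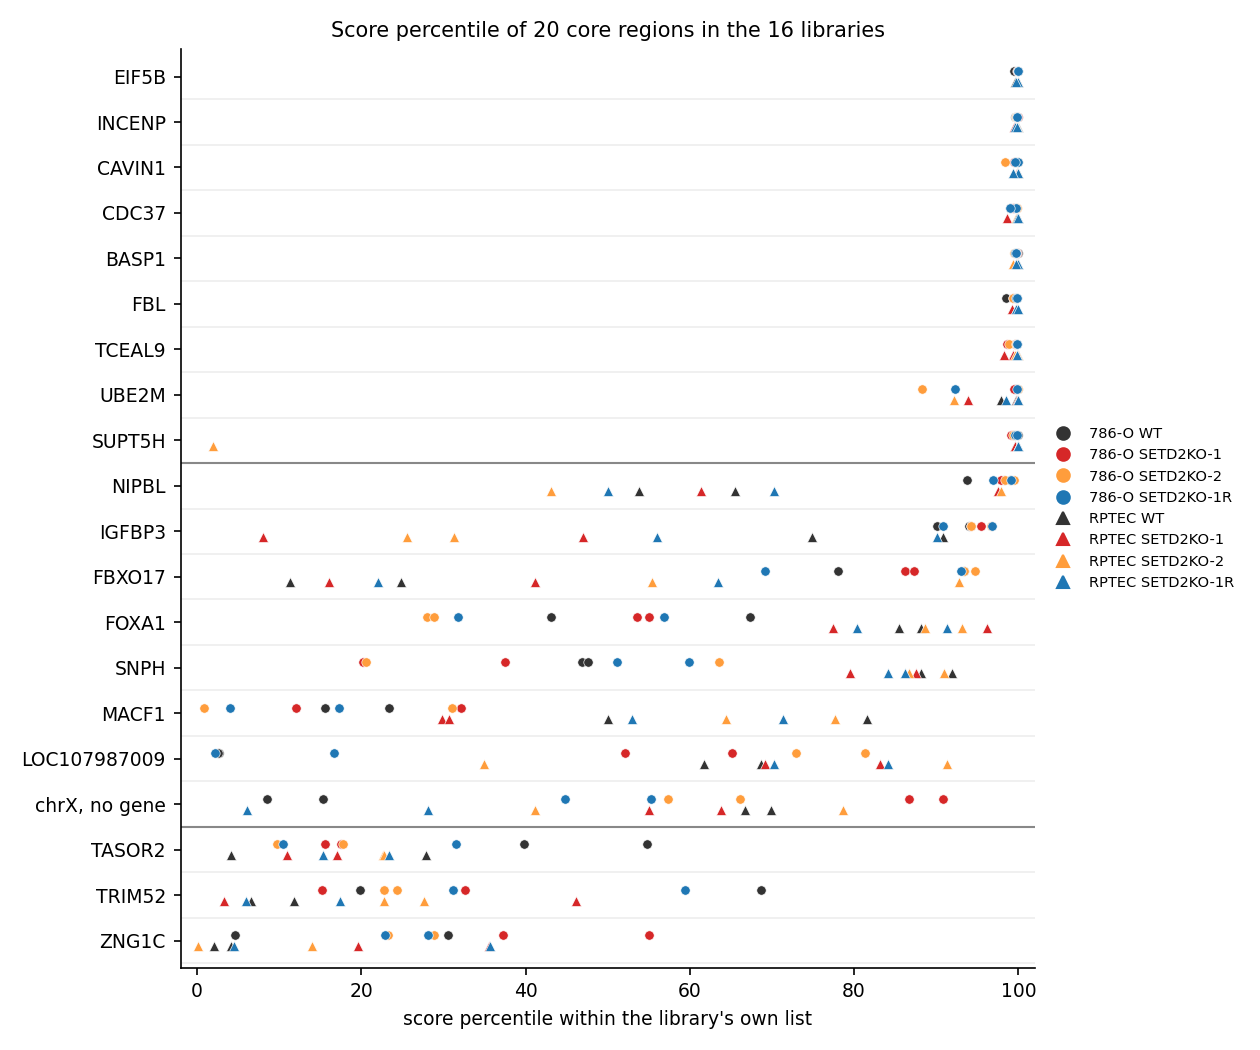
Score percentile within each library's own list (x axis) of the highest-scoring peak at 20 core regions (y axis), 1 point per library, circles for 786-O and triangles for RPTEC, coloured by line. The upper 9 regions have the highest medians over all libraries, the middle 8 passed a test between groups of libraries, and the lower 3 have the lowest medians; SUPT5H has a single library at 1.98.

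The 114 core regions of lncRNA genes fell in 93 genes and had a median percentile of 72.4, against 74.97 for protein-coding genes. Of these lncRNA regions 20 also overlapped a protein-coding gene. The strongest were in APCDD1L-DT (99.6), LOC105378443 (98.6), FOSL2-AS1 (98.1), SNHG22 (98.1) and IGFBP7-AS1 (97.5). All except SNHG22 overlapped a protein-coding gene, namely APCDD1L, TM9SF3, FOSL2 and IGFBP7, and without strand the source of the RNA cannot be told. MALAT1, an abundant nuclear lncRNA with well-studied m6A sites, was named after its values were seen. Its core region at chr11:65498845-65499705 had percentiles of 88.4 to 98.7 and a median of 95.6. NEAT1, the lncRNA scaffold of paraspeckles, was likewise chosen after its values were seen: a region at chr11:65422558-65425238 had its consensus summit outside the annotated gene and overlapped NEAT1, with a median of 99.6 and a lowest percentile of 97.5.

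Of the 148 core regions without a gene at the summit, 88 overlapped a gene elsewhere and 74 had the summit within 1000 bp of a protein-coding gene. The summit lay before the start of the nearest protein-coding gene in 76 and past its end in 35, the strand being unknown for 37. Their median percentile was 77.9. Others of them overlapped CRIM1 (98.6), a transmembrane regulator of growth factors, and PLK2 (98.6), whose start is shown above. Hairpins of 14 annotated miRNAs lay inside core regions, 1 per region, including MIR922 in RUBCN and MIR5006 in VWA8. Summits fell inside the hairpin in 6 libraries for MIR922 and in 5 for MIR5006, and in 0 libraries for 10 of the 14.

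Genes of the m6A machinery were among the members. Of 9 writer genes, 6 had a core region, 12 regions in all with a median percentile of 77.9, against 15.5% of all protein-coding genes with a core region. ZC3H13, which anchors the writer complex in the nucleus, had 4 regions, the strongest at chr13:45975365-45976465 with percentiles of 98.2 to 99.9. RBM15 (94.1 at its stronger region) and RBM15B (78.6), which recruit the complex to RNA, had 2 each, CBLL1 (83.4), the ubiquitin ligase subunit HAKAI, had 1, WTAP, the scaffold, had 2, and METTL16, a separate methyltransferase, had 1. The catalytic pair METTL3 and METTL14 had no core region, and neither did VIRMA. Of 11 readers 5 had one, led by YTHDF3 (97.0), IGF2BP3 (84.4), IGF2BP2 (82.7) and YTHDF2 (71.9). Both erasers, FTO and ALKBH5, had none. The YTHDF3 summits fell within 31 bp of each other, whereas those of YTHDF2 spanned 1301 bp.

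Of 14 well-studied m6A targets, 9 had a core region, with a median percentile of 91.2. As for the lists that follow, the share of all protein-coding genes is 15.5%, and 23.8% of those with a region, and no list was tested against it. The epidermal growth factor receptor EGFR had a median of 97.8 and a lowest value of 91.8, with 16 summits within 41 bp. JUNB (94.8) and SRF (94.3), transcription factors of the early growth response, had wider summit ranges of 1332 and 584 bp. MYC had 1 region, with a median of 55.9. Among 22 immediate early and short-lived transcripts 11 had a core region, with a median of 73.3, led by FOSL2 (95.6), JUNB, BTG1 (89.2) and JUN (80.2).

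Against 15.5% of all protein-coding genes and 23.8% of those with a region, core regions were found in 75% of the histone methylation genes and 78.9% of the chromatin remodelling genes listed, and the difference was not tested. Of 20 histone methylation genes, 15 had a core region and together held 36 with a median percentile of 77.4, the strongest in NSD2 (95.9), KMT2B (94.2), NSD3 (92.5) and SETD1B (90.9). NSD2 and NSD3 dimethylate H3K36, the step before the SETD2 reaction, and KMT2B and SETD1B methylate H3K4. Of 19 remodelling and acetylation genes, 15 had 33 core regions with a median of 79.6, among them ARID1A (98.8) and ARID1B (98.3). ARID1A and ARID1B are alternative subunits of the BAF remodelling complex, and both summits lay close to the gene start, 410 and 658 bp from it. In ARID1A all libraries but 1 were at 94.0 or above, the exception being RPTEC SETD2KO-1 replicate 1 at 66.4.

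Of 15 ccRCC tumour suppressor and hypoxia pathway genes, 7 had a core region, with a median of 78.0. VEGFA, the angiogenic growth factor (95.2), VHL, which targets HIF-α subunits for degradation (90.02), the histone demethylase KDM5C (89.5) and SETD2 (80.8) led. In VHL no base was covered by all 16 libraries, and the summits fell into 2 groups, 9 of them at -55 to 6 bp and 7 at 706 to 947 bp from the median along the chromosome, with libraries of both cell lines in each. Of 23 genes of Notch, Wnt, TGF-β and Hippo signalling, 11 had a core region (median 76.4), led by YAP1 (94.7), SKI (93.8), LRP6 (90.2) and APC (86.0). Among 21 ubiquitin ligases 9 did (median 74.7), led by TRIP12 (99.2), RNF213 (95.1), MDM2 (91.0) and HUWE1 (89.0). TRIP12 was at 97.5 or above in every library.

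Among housekeeping complexes, core regions were found in 4 of 39 cytosolic ribosomal protein genes, RPL4 (99.4), RPS2 (92.8), RPS18 (89.4) and RPL8 (85.3), a share of 10.3%, against 15.5% of all protein-coding genes. A region in at least 1 library was found in 33 of the 39, so that 12.1% of these had a core region, against 23.8% of all protein-coding genes with a region. Of 27 oxidative phosphorylation genes 1 had a core region, SDHA (73.8), which encodes a subunit of succinate dehydrogenase, and of 27 proteasome genes 2 had one, PSMD14 (97.3) and PSMA3 (59.1). RPL4 had percentiles of at least 97.7 in every library, with summits within 29 bp, whereas PSMA3 and SDHA fell as low as 25.6 and 35.7.

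C2H2 zinc finger genes formed the longest list. Of 517 such genes, 204 (39.5%, against 15.5% of all protein-coding genes) had a core region, which is 44% of those with a region against 23.8%, 243 regions in all, of which 114 lay on chromosome 19, among 324 core regions in protein-coding genes there. They were wider than the other core regions of protein-coding genes (median 1568 against 1106 bp) and lower in the lists (median percentile 66.7 against 75.4). Every library had exactly 1 peak in 28.4% of them, against 54.5%, and their summits spanned a median of 824 bp, against 465.5 bp. The strongest were in ZNF281 (96.0), ZNF841 (95.5), ZNF611 (95.3) and ZNF347 (95.2). These 4 had their summits near the start of the gene body, whereas the median over the group was 77.9% of the way along it. Many C2H2 genes of chromosome 19 are close copies of each other, so that reads can be shared between them.

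The Spearman correlation of the percentiles over the 4216 regions was 0.480 to 0.723 for the 8 replicate pairs (median 0.597), 0.474 to 0.743 for the 48 pairs of different lines of the same cell line (median 0.604), and 0.423 to 0.686 for the 64 pairs across cell lines (median 0.574). The ranges overlapped, and the median for replicates was not above that for other libraries of the same cell line. The median length of the highest peak at core regions was 663 bp ± 49.6 in 786-O and 576 bp ± 44.9 in RPTEC (SD, n = 8 libraries each). The difference was 86.7 bp (two-sided exact permutation test, p = 0.00389, 0.0466 adjusted over 12 tests). That test counted each library as independent, although the 8 of a cell line come from 4 lines, so that its p may be too small. The lists also differed in size, with 25560 to 39501 peaks in 786-O and 19159 to 31098 in RPTEC. The length was shortest in the smallest list of each, 572 and 490 bp, but did not rise steadily with size. The largest lists had 697 and 602 bp, below the 702.5 bp at 32535 peaks in 786-O and the 620 bp at 27162 in RPTEC. The part of list size in the difference was not tested. The median percentile was 76.7 ± 1.29 and 74.5 ± 1.76 (exact permutation test, adjusted p = 0.0886). Neither these nor the number of peaks per core region nor the share held by 1 peak passed the test between the 4 SETD2KO and the 4 SETD2-expressing libraries of a cell line (exact permutation test, lowest adjusted p = 0.411). With 4 libraries against 4 the smallest p before adjustment is 0.0286. After adjustment over 12 tests a single measure at that p could not pass unless most of the others were as low. The test could therefore not decide for any 1 measure.

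To compare scores between groups, each library's scores were ranked over the regions fitted and turned into normal scores, in units of the standard deviation of ranks, and tested region by region with limma. Between 786-O and RPTEC, 34 of 4216 core regions (0.806%) passed an adjusted p of 0.05, 11 higher and 23 lower in 786-O, with 564 at an unadjusted p under 0.05. Here the core regions are themselves the background, because no other region has a score in all libraries. The percentiles of the 8 libraries of one cell line and the 8 of the other did not overlap in 12 regions (0.285%), 6 in each direction, and in 9 of the 34. For a typical core region the 95% interval of the difference reached 0.57 to either side.

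Higher in 786-O were IGFBP3, NIPBL and FBXO17. IGFBP3, which binds insulin-like growth factors, had percentiles of 90.1 to 96.8 (median 94.2) in 786-O and 7.99 to 90.8 (median 51.5) in RPTEC at chr7:45913191-45914103. The ranges overlapped through 1 library, RPTEC WT replicate 2 (difference 1.89, limma adjusted p = 0.00415). No base was covered by all libraries, and the 5 lowest RPTEC libraries had their summit 318 to 662 bp from the median of the 16, against -50 to 12 bp in all others, so that different peaks were compared. In NIPBL, the loader of cohesin, 786-O had 93.7 to 99.5 and RPTEC 43.1 to 97.9, where SETD2KO-1 replicate 1 and SETD2KO-2 replicate 2 reached the 786-O values (difference 1.90, limma adjusted p = 0.0246). The other 6 RPTEC libraries had their summit 1045 to 1368 bp from the median and all remaining libraries at -19 to 28 bp, so that the lower values belong to another place in the region. This call was lost in 7 of 21 alternatives, with a limma adjusted p of up to 0.0771, each time by leaving out 1 library: WT replicate 1, either SETD2KO-1 library, SETD2KO-2 replicate 2 or SETD2KO-1R replicate 2 of 786-O, or WT replicate 2 or SETD2KO-1R replicate 1 of RPTEC. FBXO17, an F-box substrate receptor, had 69.2 to 94.8 (median 90.2) in 786-O and 11.3 to 92.8 (median 33.0) in RPTEC, where SETD2KO-2 replicate 2 lay above the 786-O median (difference 1.86, limma adjusted p = 0.0151). No base was covered by all libraries, 5 of the 786-O summits stood at -782 to -664 bp from the median and 6 of the RPTEC ones at 12 to 219 bp, so that different peaks were compared, and its call was lost with the mean score of the peaks (limma adjusted p = 0.0976). TYMS, the thymidylate synthase gene, had 82.3 to 97.5 in 786-O and 24.02 to 81.1 in RPTEC, and MAP3K21 97.1 to 99.6 and 61.4 to 96.9, in both cases without overlap.

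Lower in 786-O were FOXA1, SNPH and MACF1. FOXA1, a pioneer transcription factor of epithelia, had 28.0 to 67.3 (median 48.3) in 786-O and 77.4 to 96.2 (median 88.4) in RPTEC, without overlap (difference -2.01, limma adjusted p = 0.00176), at chr14:37591081-37592903. All libraries shared 522 bp of this region. Its summits stood at -3 to 334 bp from the median in 786-O and at -651 to 13 bp in RPTEC, so that they were not always at the same place. SNPH, syntaphilin, had 20.2 to 63.6 (median 47.2) and 79.5 to 91.9 (median 87.1), again without overlap (difference -1.99, limma adjusted p = 0.00142). Only 45 of the 1798 bp of the SNPH region were covered by all libraries. Its summits stood at -746 to 158 bp from the median, so that the peaks compared were not always the same. MACF1 had 0.810 to 32.1 in 786-O and 29.9 to 81.6 in RPTEC at 1 of its 6 core regions (difference -1.80, limma adjusted p = 0.0107). FOXA1, SNPH, MACF1 and IGFBP3 kept their call in every alternative that could be fitted for them. BTG1, an antiproliferative gene and the 1 member of the gene lists that passed, had 59.8 to 88.2 in 786-O and 90.2 to 98.8 in RPTEC, and the tubulin TUBB4B, AKAP9 and ATP8A2 were also separated, each lower in 786-O. The lists cannot tell more methylation from more RNA of a transcript, since scores come from IP over Input peaks without counts.

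Few core regions passed the test of SETD2KO against WT by score. In 786-O, 3 of the 7626 regions called in all 8 of its libraries passed the test of SETD2KO against WT (0.0393%), all higher in SETD2KO, and 2 of them were core regions, with 239 of the 4216 core regions at an unadjusted p under 0.05. In RPTEC, 0 of 5637 passed (0.0%), with 172 core regions at an unadjusted p under 0.05 and a lowest adjusted p of 0.480 in limma. For the rescue against SETD2KO-1, 0 of 7626 passed in 786-O (0.0%; 207 core regions at an unadjusted p under 0.05 in limma) and 0 of 5637 in RPTEC (0.0%; 167). The SETD2KO effect passed a test of its difference between 786-O and RPTEC in 0 of 4216 (0.0%; 226 at an unadjusted p under 0.05 in limma). Regions that lacked a peak in any library fitted were left out. A region whose peak was gained or lost outright between lines could therefore not be counted here. A p that misses the threshold does not show that scores were the same: the median 95% interval reached 0.94 to either side in 786-O and 1.02 in RPTEC. On simulated data 84 of 200 planted shifts of 2 units were recovered in 786-O and 74 in RPTEC, and 0 of 200 shifts of 1 unit in either, so that small changes were out of reach.

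The 2 core regions higher in 786-O SETD2KO were a lncRNA and a stretch without a gene. LOC107987009, at chr9:63440801-63441516, had percentiles of 2.67 and 2.53 in WT, 52.1 and 65.1 in SETD2KO-1, 72.9 and 81.3 in SETD2KO-2, and 16.6 and 2.15 in SETD2KO-1R (difference 3.03, limma adjusted p = 0.0486). Both SETD2KO clones stood above both SETD2-expressing lines. In RPTEC the same region ranged from 35.0 to 91.3, with WT at 61.7 and 68.7. The region without a gene, chrX:2184161-2185597, had 15.3 and 8.53 in WT, 86.7 and 90.8 in SETD2KO-1, 57.3 and 66.1 in SETD2KO-2, and 55.3 and 44.8 in SETD2KO-1R (difference 2.55, limma adjusted p = 0.0486). Here SETD2KO-1R lay between WT and SETD2KO-1. No base of this region was covered by all 16 libraries. Its summits stood at -268 and -33 bp from the median in WT, 515 and 26 bp in SETD2KO-1, and 137 and 501 bp in SETD2KO-2. In SETD2KO-1R they stood at 488 and -25 bp, so that the peaks compared were not always the same. Both calls sit at the threshold, the first lost in 10 of 15 alternatives and the second in 13 of 14.

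Between 786-O and RPTEC the summits of 21 of 4216 (0.498%) passed an adjusted p of 0.05 in limma, 12 with the summit further downstream in 786-O and 9 further upstream, and 297 had an unadjusted p under 0.05. Without any 1 library the count was 29 to 56, lowest without 786-O SETD2KO-1R replicate 2 and highest without RPTEC SETD2KO-1R replicate 2. Direction is along the transcript where the strand was known and otherwise along the chromosome. The median 95% interval reached 159 bp to either side. In 7 of the 21 only 1 of the 8 lines lay more than 100 bp from the median of the 16 summits, so that a difference between cell lines came from a single line. The other 14 included the SLC26A1 region, the longest difference at 3296 bp. There, 5 of the 786-O summits stood 2605 to 2647 bp downstream of the median, while those of 7 of the 8 RPTEC libraries stood at -2260 to -500 bp.

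In PPP1R26, a regulatory subunit gene of protein phosphatase 1, the 786-O summits stood at 473 to 542 bp from the median in 6 libraries and at -483 and -473 bp in the other two. In RPTEC they stood at -2568 and -2611 bp in WT, -2287 and -2257 bp in SETD2KO-1, -788 and -487 bp in SETD2KO-2 and 486 and 488 bp in SETD2KO-1R (difference 1519 bp, limma adjusted p = 0.00649). The RPTEC SETD2KO-1R summits stood where those of most 786-O libraries did, and RPTEC SETD2KO-2 replicate 2 stood near the other two of 786-O. In GNPTG, a subunit of the enzyme that tags lysosomal hydrolases, the 786-O mean was 593 bp downstream of RPTEC, with both SETD2KO-1R lines on the other side of the median from most libraries of their own cell line. In FBXO17 at a second core region, chr19:38941733-38943029, 7 RPTEC summits stood 191 to 227 bp downstream of the median and 7 of 786-O stood at -633 to -192 bp (difference -578 bp, limma adjusted p = 0.00955). In PHLDB1, SETD2KO-1R of 786-O alone was displaced, by -1234 and -1242 bp, with all other libraries at -52 to 19 bp.

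Between SETD2KO and WT, the summits of 10 of 4216 core regions (0.237%) passed in 786-O, 5 downstream and 5 upstream, with 246 at an unadjusted p under 0.05 in limma. In RPTEC 6 passed (0.142%), 2 downstream and 4 upstream, with 203 at an unadjusted p under 0.05. Without 1 library the counts were 10 to 51 and 7 to 38, highest without 786-O WT replicate 1 and without RPTEC WT replicate 1. In 6 of the 10 and 3 of the 6 a single line was displaced. The median 95% interval was wide, 275 bp to either side in both cell lines. KIAA0232 was the 1 gene that passed in both, and in each it was 1 clone that moved.

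The displaced line was WT in 3 of the 786-O regions named here. In RGS3, a regulator of G protein signalling, the WT summits stood at 281 and 302 bp and all other libraries at -23 to 16 bp (difference -301 bp, limma adjusted p = 0.000318). In ARF6, a GTPase of membrane traffic, WT stood at 345 and 342 bp and all others at -28 to 51 bp (-327 bp, limma adjusted p = 0.00167). In ABCC3, a drug and bile acid exporter, WT stood at -308 and -429 bp and all others at -55 to 18 bp (360 bp, limma adjusted p = 0.00203). In these 3 genes SETD2KO-1R matched the knockouts and not WT. In TMF1, a Golgi protein gene, WT stood at 797 and 815 bp, the knockouts at -74 to 0 bp, and SETD2KO-1R at -19 and 349 bp.

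In TMEM51, ZNF800, KIAA0232, PRECSIT and EXT1 it was 1 knockout clone of a cell line. In TMEM51 the summits of 786-O SETD2KO-2 stood at 895 and 1033 bp and all others at -18 to 24 bp (464 bp, limma adjusted p = 0.000596). In ZNF800 the same clone stood at 1183 and 1605 bp, and this call was lost in 10 of 18 alternatives. In KIAA0232 786-O SETD2KO-2 stood at 507 and 517 bp and RPTEC SETD2KO-1 at 507 and 474 bp, against -30 to 15 bp in all other libraries, so that different clones in the 2 cell lines shared 1 position. In RPTEC the lncRNA PRECSIT was displaced in SETD2KO-2 alone, to 986 and 979 bp (483 bp, limma adjusted p = 3.56e-05). In EXT1, a heparan sulfate polymerase, RPTEC SETD2KO-1 stood at -1443 and -1425 bp and all others at -20 to 59 bp (-700 bp, limma adjusted p = 7.73e-07). The score fell with it, to percentiles of 68.1 and 63.6, against at least 98.0 in the other 14 libraries.

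In AFG2A, PBRM1 and UACA the WT and rescue lines of 1 cell line stood apart from both knockout clones, apart from 1 PBRM1 rescue library that lay between. With a gap of more than 100 bp, this arrangement was seen in 16 core regions (0.38%) in 786-O and 23 (0.546%) in RPTEC, fewer than those with WT alone apart (68 and 40) or SETD2KO-1R alone apart (60 and 56), as a description without a test. In RPTEC AFG2A, an AAA ATPase gene, WT stood at 442 and 443 bp and SETD2KO-1R at 345 and 382 bp, against -31 to 17 bp in the 4 knockout libraries (difference SETD2KO against WT -447 bp, limma adjusted p = 3.41e-05). The 8 libraries of 786-O, knockout or not, stood at -11 to 58 bp. PBRM1 and UACA were chosen after their values were seen. PBRM1, a subunit of the PBAF remodelling complex and a ccRCC tumour suppressor, had summits at -31 and 29 bp in 786-O WT, 310 and 413 bp in SETD2KO-1, 309 and 321 bp in SETD2KO-2 and -18 and 114 bp in SETD2KO-1R, at chr3:52609467-52610205 (339 bp, limma adjusted p = 0.00871). All 8 RPTEC libraries stood at -49 to 28 bp, without a shift in the knockouts. In UACA, 786-O WT stood at -166 and -167 bp and SETD2KO-1R at -177 and -159 bp, against -43 to 28 bp in the knockouts, but the region did not pass the test of SETD2KO against WT. In SP4, a transcription factor, the rescue did not stand with WT: RPTEC WT stood at 986 and 965 bp, the knockouts at -1 to 358 bp and SETD2KO-1R at 12 and 61 bp. With the midpoint of the peak in place of its summit, SLC26A1 kept its call at 3324 bp, and the other calls between cell lines and of SETD2KO against WT named by rule were lost, some at a similar size and some at a much smaller one. GNPTG still differed by 572 bp, RPTEC SP4 by -640 bp, EXT1 by -612 bp (limma adjusted p = 0.0553) and PRECSIT by 381 bp, whereas RGS3 differed by -30.2 bp, ARF6 by -41.5 bp and AFG2A by -22.5 bp.

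**Figure D4:**
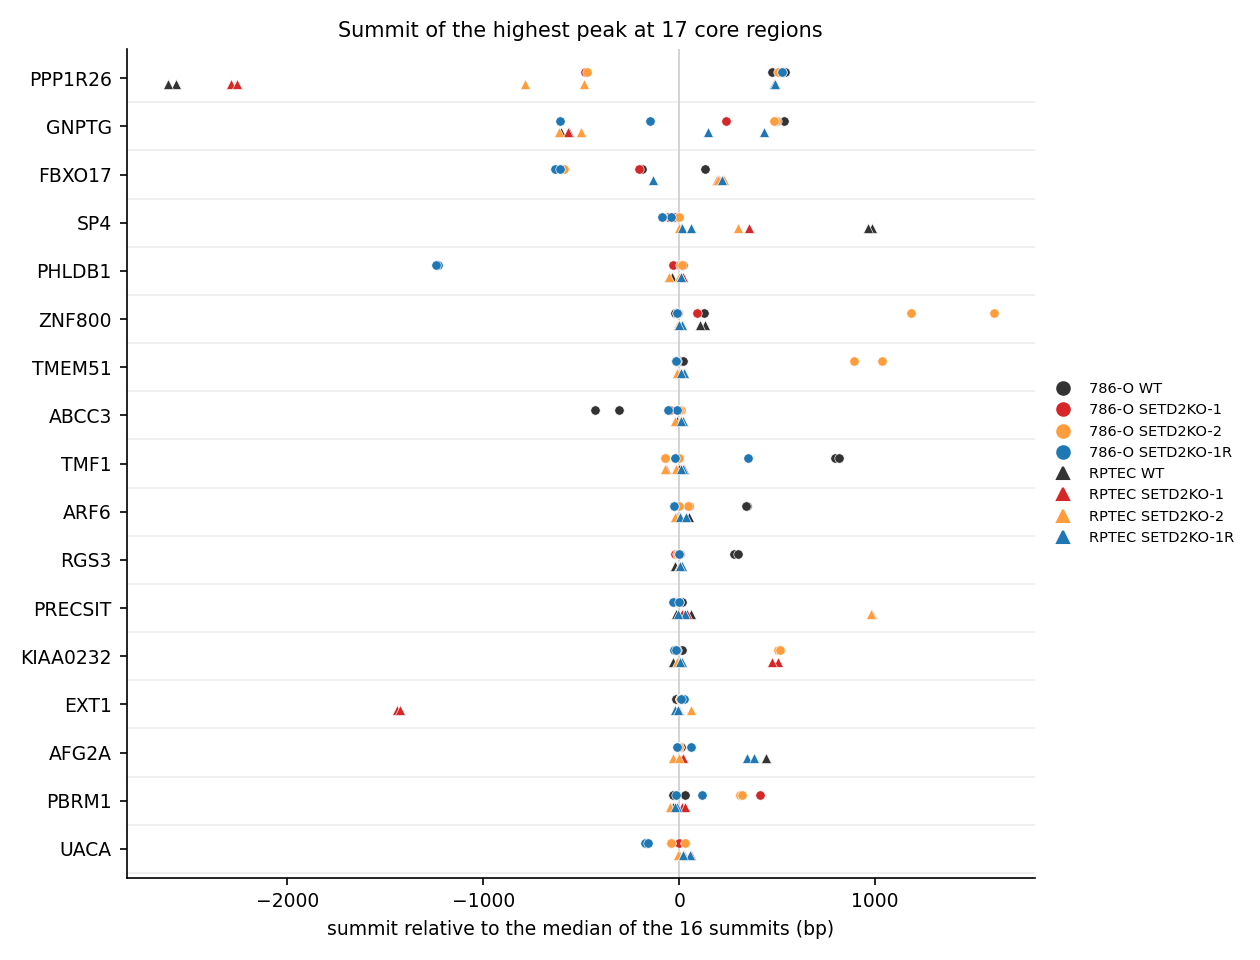
Summit of the highest-scoring peak in each of the 16 libraries, in bp from the median of the 16 (x axis, along the transcript where the strand is known), at 17 core regions (y axis), circles for 786-O and triangles for RPTEC, coloured by line. Several regions have both libraries of 1 line displaced, such as RPTEC SETD2KO-1 at EXT1 (-1443 and -1425 bp), with the other libraries close to 0.

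A smaller displacement ran through whole libraries. At the 375 single-peak core regions of known strand whose summits spanned at most 100 bp, the median summit of RPTEC SETD2KO-1 replicate 2 and of RPTEC SETD2KO-1R replicate 1 stood 19 bp towards the 3′ end, that of 786-O WT replicate 2 stood 17 bp and that of RPTEC SETD2KO-1R replicate 2 stood 8 bp towards it. Both SETD2KO-1R libraries of 786-O stood 10 bp towards the 5′ end, and the other 10 lay between -7 and 3 bp. The displacement changed sign with the strand of the gene. For RPTEC SETD2KO-1 replicate 2 it was 19 bp along the chromosome in the 209 genes on the plus strand and -18.5 bp in the 166 on the minus strand. In that library 90.4% of these summits lay to the 3′ side of the median. The other replicates of 2 of these lines were not displaced alike, as 786-O WT replicate 1 stood at 2 bp and RPTEC SETD2KO-1 replicate 1 at 0 bp, whereas both SETD2KO-1R libraries of a cell line lay to the same side. What moves with the displacement was not tested.

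**Figure D5:**
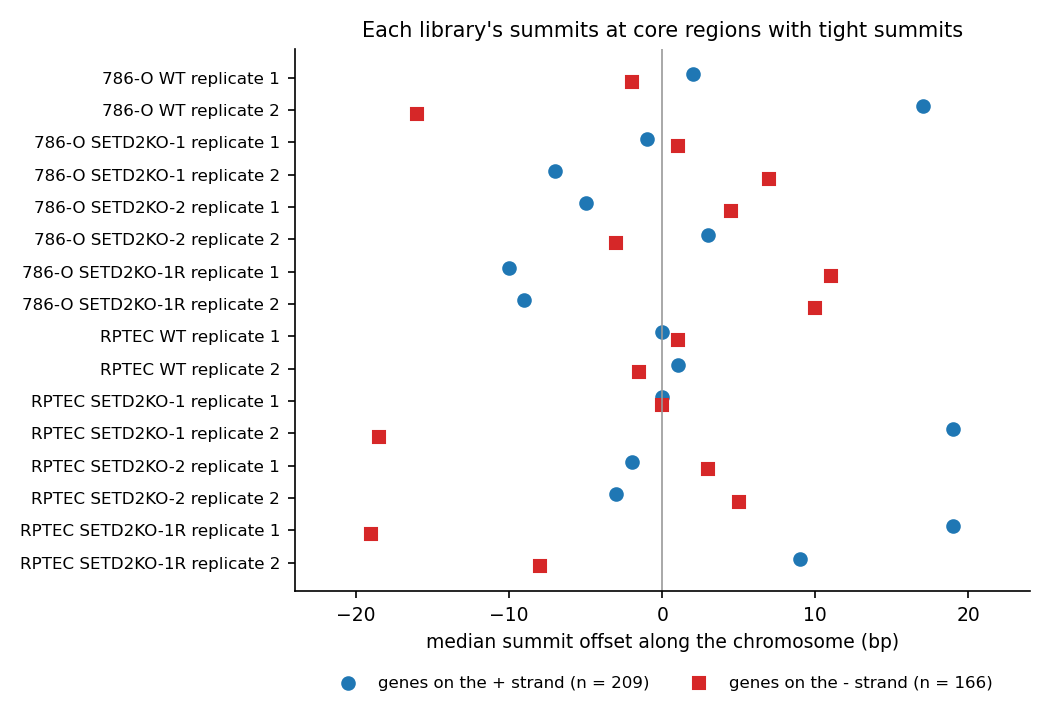
Median summit offset along the chromosome (x axis, bp from the median of the 16 summits) in each library (y axis) over 375 tight single-peak core regions, for 209 genes on the plus strand (blue circles) and 166 on the minus strand (red squares). In each library the 2 medians are near mirror images about 0, up to 19 bp to either side.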

How the data were processed

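MeRIP-seq IP over Input peak lists of 16 IP libraries (8 of 786-O and 8 of RPTEC, 2 per line) were used. The Input samples served the authors' peak calling and were not analysed here. Per the labels and methods, the authors added E. coli K-12 RNA as a spike-in, aligned reads with STAR to hg38, counted with HTSeq, scaled by spike-in and depth and called peaks with MACS2 in each library. The deposited files give for each peak a score, a whole number of unstated scale, and the summit; depth and counts are not in them. A higher score may come from deeper sequencing, so scores were used only as the percentile within a library's own list or as ranks.

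Of 474004 peaks, 471882 on chromosomes 1 to 22 and X were merged by overlap of at least 1 bp. In a library with several peaks in a region the highest-scoring one was used. Genes came from the RefSeq table of GRCh38.p14 as gene bodies, protein-coding before others, and strand and starts from its start windows. Groups followed the sample titles. Contrasts were fitted with limma (8 group means, or 4 within a cell line) on normal scores of ranks or on summit positions, with Benjamini-Hochberg adjustment over all regions fitted, and values per library were compared by exact permutation tests. The members and lists were chosen with earlier results of these data known. Named were the 15 regions with the highest and the 3 with the lowest median percentile, the 3 longest, the 3 with the tightest summits, up to 3 per contrast and direction by size of difference, and and up to 4 genes per list; the start regions, lncRNAs, miRNA hosts, genes with many regions, genes without overlap between cell lines and those so marked were chosen after their values were seen. The fits were tested on simulated data. Some genes that these rules named are not reported here. Tools were limma 3.58.1 in R 4.3.3 and, in Python 3.11.15, matplotlib 3.10.9, scipy 1.17.1, pandas 2.3.3 and numpy 2.4.6.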

Additional observations from a re-analysis of the deposited data

Results flagged for a closer look

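In groups of 4 to 10 libraries, the highest or lowest value was compared with the gap to its nearest neighbour by Dixon's criterion. Among 36 groups of per-library values 1 stood out: the median length of the highest peak at core regions was 572 bp in 786-O SETD2KO-1R replicate 2, the lowest of the 4 SETD2-expressing 786-O libraries.

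Among 92 groups of 8 percentiles at named regions, 20 stood out (21.7%), where chance gives about 1 in 20. Percentiles near 100 are compressed, so that a small gap suffices there. The widest gap was in SUPT5H, with 1.98 in RPTEC SETD2KO-2 replicate 2. RGS3 was at 34.1 in 786-O WT replicate 1, KIAA0232 at 24.8 in RPTEC SETD2KO-1 replicate 2, and PPP1R26 at 58.2 in RPTEC SETD2KO-2 replicate 2 and at 78.7 in 786-O SETD2KO-1R replicate 2.

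The others stayed above 93 and were low only beside neighbours near 100. 786-O WT replicate 2 was low at NIPBL (93.7), ZC3H18 (96.4), FBL (98.5) and EIF5B (99.5). RPTEC SETD2KO-1 replicate 2 was low at TCEAL9 (98.2), and replicate 1 at CDC37 (98.6), HNRNPL (98.2) and FBL (99.2). COTL1 was low in 786-O SETD2KO-1 replicate 2 (97.1) and in RPTEC SETD2KO-2 replicate 1 (97.6), which was also low at BASP1 (99.4). HNRNPL was low in 786-O SETD2KO-2 replicate 2 (97.9), CAVIN1 in 786-O SETD2KO-2 replicate 1 (98.4) and in RPTEC SETD2KO-1R replicate 2 (99.3), and ACIN1 was at 97.3 in RPTEC WT replicate 1.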

How the results depend on the processing

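With the upper 50% of peaks by score alone, 1667 core regions were left, and 1333 when each library had to cover at least 50% of the region. It was 3487, 4225, 6219 and 4148 with longer peaks only, with peaks within 100 bp merged, with 15 libraries enough and as stretches covered by all 16, and 4248 to 4760 without any 1 library. Of 97 results under an alternative other than a left-out library, 79 were counted as kept. For numbers of regions or calls, kept means within a fixed ratio of the main number, and 0 calls that stayed 0 were included. For the permutation tests it means the same direction and side of the threshold. The 34 calls of 786-O against RPTEC became 14 in single-peak regions and 17 to 58 without 1 library, lowest without RPTEC WT replicate 2 and highest without RPTEC SETD2KO-2 replicate 1. Core calls of SETD2KO against WT in 786-O were 0 with list percentiles, log2 scores or mean scores, 1 in single-peak regions, 1 against all SETD2-expressing libraries, 3 with core regions alone fitted (lowest limma adjusted p 0.00936), and 0 to 1 without 1 library. Without 1 library the rescue gave 0 to 3 calls in 786-O and 0 to 1 in RPTEC, SETD2KO against WT in RPTEC 0, and the difference between cell lines 0 to 1. With midpoints, summit calls fell to 10 for 786-O against RPTEC, 4 for SETD2KO in 786-O and 1 in RPTEC, and in single-peak regions to 6, 4 and 3. Without 1 library they were 29 to 56, 10 to 51 and 7 to 38, where the lone sample of a line is assumed to vary like the others. With midpoints the SP4 difference between cell lines was 15.3 bp and the ABCC3 difference -39.0 bp, both reversed. The replicate numbers did not pair the libraries (correlations of same-numbered deviations -0.235 to 0.296): with the replicate block the score calls were 37, and 0 for SETD2KO in 786-O, and the summit calls 16, 8 and 6. The percentile difference between cell lines was 1.57 in single-peak regions (1.84 to 2.59 without 1 library), and the length difference 74.4 to 99.6 bp. SETD2KO minus SETD2-expressing peak length in 786-O was -3.25 bp in single-peak regions and -24.4 to 26.7 bp without 1 library, and -32.5 to 12.5 bp in RPTEC. In RPTEC peaks per core region differed by -0.0510 to -0.0220 and the single-peak share by 1.47 to 3.63 points. Near starts the core difference was -0.520 points at 2000 bp. The causes were not tested.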
